A study of Mus musculus with 3 samples.

Results

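The bins described here are 1 kb stretches of the mouse genome that were called for H3R2me2s, the symmetric form of dimethylated arginine 2 on histone H3. They lay beside chromatin called for trimethylated lysine 4 (H3K4me3) and were not called for H3K4me3 themselves. A bin entered the set with 15 or more H3R2me2s reads, under 25 H3K4me3 reads, and a bin of 25 or more H3K4me3 reads within 5 bins on either side. A stretch of chromosome 2, from 101460001 to 101491000 in mm9, was left out. The rule gave 1009 bins, which are called H3R2me2s flank bins below. They were 3.58% of the 28193 bins called for H3R2me2s, and 50.9% of the 1984 bins called for H3R2me2s but not for H3K4me3. Of the others, 969 lay farther than 5 bins from any H3K4me3 call and 6 lay in the stretch left out.

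Chromatin immunoprecipitation with sequencing was done on RAG2-/- pro-B cells of strain C57BL/7, as the labels write it, that had been transformed with Abelson virus and grown as a cell line in culture. The same cells gave 1 library with an antibody to H3R2me2s, 1 with an antibody to H3R2me2s and H3K4me3 on the same tail (the combined mark, H3R2me2sK4me3), and 1 with an antibody to H3K4me3. The antibodies to H3R2me2s and to the combined mark were raised in the submitting laboratory, and the one to H3K4me3 was from Abcam. The libraries held 6923765, 7128852 and 13898471 mapped reads. With 1 library per antibody and no input library used here, no test between antibodies was made. Intervals are 95% intervals for counting error alone, except for ranges over divisions of the reads. Reads made by PCR without molecular identifiers are not independent molecules.

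H3K4me3 is the mark of active and poised promoters, where it is set by the SET1 and MLL methyltransferase complexes. Symmetric dimethylation of the nearby arginine is set by arginine methyltransferases such as PRMT5 and PRMT7, and it is compatible with binding of WDR5, a subunit of the MLL complexes. Asymmetric dimethylation of the same arginine, a different modification, hinders H3K4 trimethylation. Bins called for the symmetric mark beside bins called for H3K4me3, rather than in them, bear on how closely both maps coincide at their edges.

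The H3R2me2s flank bins were rare and close to the calling limit. There were 166305 bins in the flanks of H3K4me3 chromatin, meaning bins under 25 H3K4me3 reads within 5 kb of a called one, and 0.607% of them were called for H3R2me2s. Over all 2285014 bins with a read in any library the share was 1.23%. The latter include bins called for H3K4me3, which the flanks leave out. Such bins held 26209 of the 28193 H3R2me2s calls, so these shares are not of like bins. In the set, H3R2me2s reads ran from 15 to 58 per bin with a median of 16. There were 438 bins at exactly 15 reads, or 43.4% (40.3 to 46.5), and 826 bins, or 81.9%, at 15 to 17 reads. In bins called for both H3R2me2s and H3K4me3, the median was 29 reads and the highest count was 365. These H3R2me2s counts chose the set and are given as a description. Which bins reached the limit depended on where the bins began: with the grid moved by 500 bp the rule gave 1069 bins, and 299 of the 1009, or 29.6%, overlapped one of those.

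The counts showed no break at the limit. Just outside it, 1207 flank bins had 13 H3R2me2s reads and 702 had 14. Just inside it, 438 had 15, 237 had 16 and 151 had 17. The bins at 14 reads held a mean of 6.29 combined-mark reads and 14.9 H3K4me3 reads, and those at 15 reads held 6.57 and 15.0. The set was thus the far end of a continuous distribution, apart from 5 bins with 48 reads or more, while all other bins had 25 or fewer. On the H3K4me3 side there was no break either: among bins called for H3R2me2s anywhere in the genome, 385 had 20 to 24 H3K4me3 reads and 387 had 25 to 29.

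**Figure D1:**
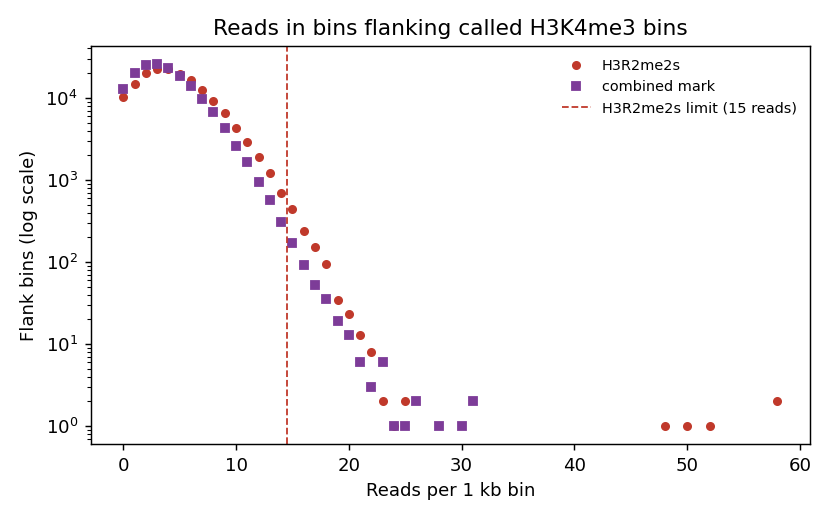
Number of flank bins (log scale) by reads per 1 kb bin, for H3R2me2s (circles) and the combined mark (squares); the dashed line is the H3R2me2s limit of 15 reads. The H3R2me2s counts fall smoothly through the limit, from 702 bins at 14 reads to 438 at 15, and 5 bins stand alone at 48 to 58 reads.

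Many of the calls rested on reads that repeated a position and strand. They made up 8.04% of the H3R2me2s reads in the set, against 4.65% in the other flank bins, 6.48% in bins called for both H3R2me2s and H3K4me3, and 5.22% in the library. In the H3R2me2s bins far from H3K4me3 the share was 9.07%. The counts that chose the bins include repeated reads, so their share in the set is not independent of the choice. With 1 read kept per position and strand, 563 of the 1009 bins still held 15 H3R2me2s reads, or 55.8% (52.7 to 58.9). For the H3R2me2s bins far from H3K4me3, which lie as close to the limit, that share was 53.4% (50.2 to 56.5). In the set, repeated reads made up 1.85% of combined-mark reads and 1.86% of H3K4me3 reads, close to the 1.56% and 1.65% of the other flank bins. The H3R2me2s reads came from both strands, 50.4% of them from the plus strand (49.6 to 51.1), and no bin of the set held reads of 1 strand only. Whether the repeated reads were PCR copies was not tested.

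The combined-mark library took no part in the choice of the bins. It was higher in the set than in the other flank bins, but it seldom reached its own calling limit of 16 reads. Combined-mark reads ran from 0 to 31 per bin, with a median of 7 and a mean of 6.95 ± 3.59 (SD over 1009 bins). That mean was 3.73 times background (3.65 to 3.82). Background is the average count where the nearest called bin of any library lies over 5 kb away, here 1.86 reads per bin. In the other flank bins the mean was 3.88 ± 2.74 reads, or 2.09 times background. Only 19 bins of the set were called for the combined mark, or 1.88% (1.14 to 2.93). The share was 0.129% over the other flank bins and 0.14% over all flank bins. It was 1.45% over all bins with a read, which include those called for H3K4me3. In bins called for both H3R2me2s and H3K4me3, 91.7% were called for the combined mark. In the set, 4 bins had no combined-mark read.

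Scaled to the depth of each library, H3R2me2s was the highest of the 3 libraries in the set. There, H3R2me2s averaged 2.37 CPM, a count scaled to the depth of its library, while the combined mark averaged 0.974 and H3K4me3 1.12. The other flank bins had the same order, with means of 0.657, 0.545 and 0.619 CPM. This order does not hold there in times background. H3R2me2s was then the lowest in those bins, at 1.93, beside 2.09 for the combined mark and 2.89 for H3K4me3. In the set it was the highest, at 6.98, beside 3.73 and 5.23. That 6.98 comes from the reads that chose the bins. In bins chosen on 80% of the H3R2me2s reads, not the same bins as the set, the remaining reads gave 3.76 times background. That level is close to the 3.73 of the combined mark and below the 5.23 of H3K4me3. In bins called for both H3R2me2s and H3K4me3 the means were 5.46, 11.8 and 13.4 CPM. The rule fixes H3R2me2s above H3K4me3 in CPM in every bin of the set. The least H3R2me2s it admits, 15 reads, is 2.17 CPM, and the most H3K4me3, 24 reads, is 1.73 CPM. In times background the rule also takes bins high in H3R2me2s and low in H3K4me3, so part of that order comes from the choice.

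**Figure D2:**
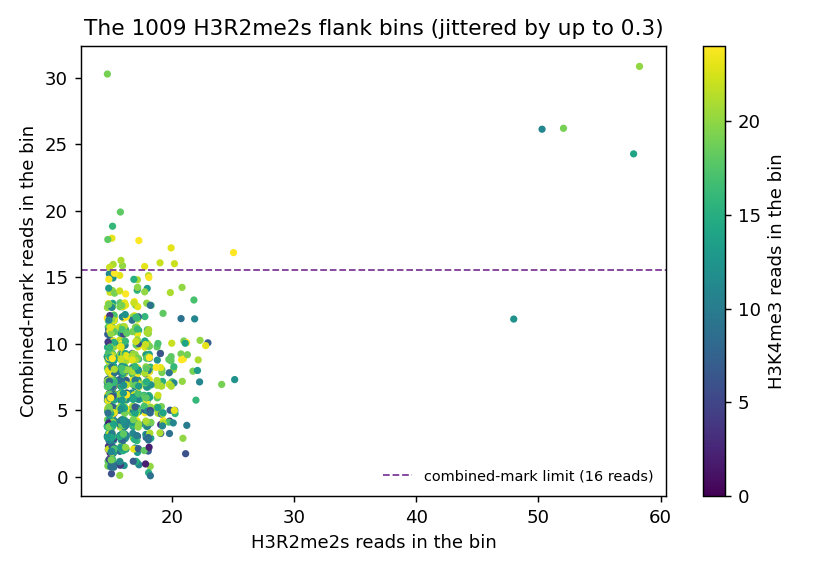
Combined-mark reads against H3R2me2s reads for each of the 1009 H3R2me2s flank bins, coloured by H3K4me3 reads, with points jittered by up to 0.3 reads; the dashed line is the combined-mark limit of 16 reads. Most points crowd at 15 to 17 H3R2me2s reads below the line, and 19 lie above it.

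The bins of the set were not empty of H3K4me3. Their H3K4me3 reads ran from 0 to 24, with a median of 16 and a mean of 15.6 ± 5.51 (SD), or 5.23 times a background of 2.98 reads per bin. In the other flank bins the median was 7 and the mean 8.60 ± 5.59, or 2.89 times background. The set held 300 bins with 20 to 24 H3K4me3 reads, or 29.7%, where 5.83% of all flank bins had as many. It held 170 bins with 0 to 9 H3K4me3 reads, or 16.8%, where 62.9% of all flank bins lay in that range. The upper limit of 25 is part of the rule, whereas the crowding toward it is not set by the rule.

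The share of flank bins called for H3R2me2s was higher the more H3K4me3 reads the same bin held. It was 0.0510% of bins with 0 to 4 H3K4me3 reads (0.0320 to 0.0772) and 0.241% of those with 5 to 9. It was 0.735% with 10 to 14 reads, 1.66% with 15 to 19 and 3.10% with 20 to 24 (2.76 to 3.46). Mean H3R2me2s in the flank bins that were not called went the same way, from 2.95 reads in the lowest class to 6.86 in the highest.

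The bins became fewer with distance, and their H3K4me3 fell alongside. The bin next to a called H3K4me3 bin held 444 bins of the set, or 44.0% (40.9 to 47.1), where 23.1% of all flank bins lie there. At 2, 3, 4 and 5 bins there were 195, 160, 117 and 93. As a share of the flank bins at each distance these were 1.15%, 0.560%, 0.490%, 0.378% and 0.316%. Mean H3K4me3 in the set fell from 18.2 reads at 1 bin to 12.3 at 5 bins, and mean combined mark from 7.94 to 5.48 reads. Mean H3R2me2s, held up by the limit, was 16.7 and 16.1 reads.

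Among bins of like H3K4me3 reads, from 10 reads up, the share called for H3R2me2s did not fall between 1 bin and 3 to 5 bins. From 15 reads up it was higher at 3 to 5 bins than at 1 bin. With 20 to 24 H3K4me3 reads it was 2.87% at 1 bin (2.50 to 3.28), 2.69% at 2 bins (1.89 to 3.70) and 5.16% at 3 to 5 bins (3.90 to 6.68). With 15 to 19 reads it was 1.41% (1.19 to 1.67), 1.64% (1.26 to 2.10) and 2.32% (1.86 to 2.87). With 10 to 14 reads it was 0.680%, 0.732% and 0.779%, with overlapping intervals. In the lower classes few bins were called: 0.266% at 1 bin (0.165 to 0.406) and 0.254% at 3 to 5 bins with 5 to 9 reads, and 0.0760% (0.00921 to 0.274) and 0.0532% with 0 to 4 reads.

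**Figure D3:**
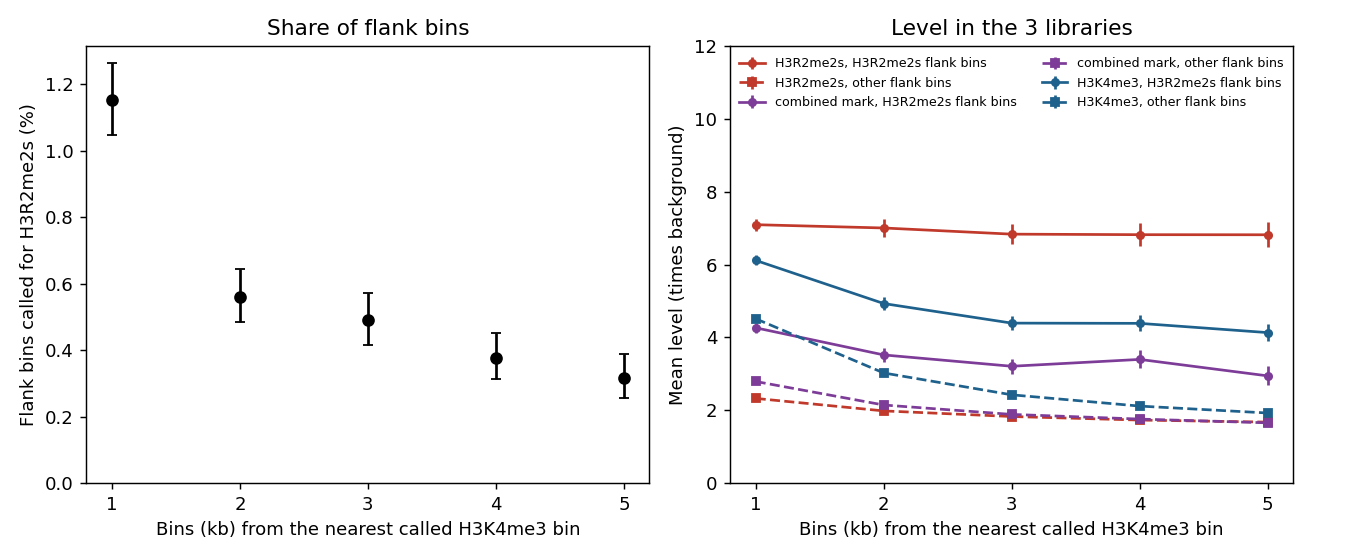
Left, the share of flank bins called for H3R2me2s at 1 to 5 bins from the nearest called H3K4me3 bin, with exact 95% binomial intervals. Right, mean level in times background with exact Poisson 95% intervals, for H3R2me2s flank bins (solid, circles) and other flank bins (dashed, squares); the share falls from 1.15% to 0.316%, and the combined mark lies above that of the other flank bins at each distance.

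Within each class of H3K4me3 reads the combined mark was higher in the set than in the other flank bins, by less in the higher classes. With 0 to 4 H3K4me3 reads the means were 4.73 and 2.31 combined-mark reads, a ratio of 2.05 (1.67 to 2.48) over 22 bins of the set. With 5 to 9 reads the ratio was 1.50 (1.40 to 1.61), and with 10 to 14 reads it was 1.37 (1.30 to 1.44). With 15 to 19 reads it was 1.21 (1.16 to 1.27) and with 20 to 24 reads it was 1.20 (1.15 to 1.25). Within these classes the set lay somewhat higher in H3K4me3 than the other bins, by 3.18 against 2.54 reads in the lowest class and 21.9 against 21.8 in the highest. Uncalled bins 10 to 50 kb away also held more combined mark around the set, at 1.73 against 1.48 times background around the other flank bins. The part of either gap in the ratios was not tested. The SD over bins was 3.10 reads in the set and 1.98 in the other bins of the lowest class, so single bins overlapped widely.

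Over all flank bins, the combined mark was higher in each successive class of H3R2me2s reads. Its mean was 3.17 reads where H3R2me2s was 0 to 4 reads, 4.55 at 5 to 9 and 5.76 at 10 to 14. It was 6.78 (6.62 to 6.95) at 15 to 19 and 9.83 (9.01 to 10.7) in the 54 bins at 20 or more. Those 54 include the 5 bins with 48 H3R2me2s reads or more, which held 12 to 31 combined-mark reads. Mean H3K4me3 over the same classes was 6.89, 10.2, 13.2, 15.5 and 16.4 reads. The bins of the set continue the trend of the uncalled flank bins in both libraries.

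Because the bins were chosen for high H3R2me2s counts, those counts overstate the level. Bins were therefore also chosen by the same rule on a random 80% of the H3R2me2s reads, with a limit of 12, and measured on the remaining 20%. Reads of the same position and strand were kept together. Over 10 such divisions a mean of 1554 bins was chosen, at 7.00 times background in the reads that chose them and 3.76 times (3.66 to 3.84 over divisions) in the reads that did not. With the reads divided into equal parts and a limit of 8, the levels were 7.49 and 3.41 times background. The background was 2.35 reads per bin, and the flank bins outside the set averaged 1.93 times it. The held-out level therefore lay above that of ordinary flank bins and well below the level that the choosing reads gave. It is the level in this library and no replicate.

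The excess in held-out reads was present in each class of H3K4me3 reads. As a mean ratio over divisions it was larger than that of the combined mark in the same bins. With 5 to 9 H3K4me3 reads, held-out H3R2me2s scaled to full depth was 7.56 reads per bin in chosen bins and 4.38 in the others, a ratio of 1.73 (1.55 to 1.85 over divisions). The combined mark in those bins had a ratio of 1.43 (1.39 to 1.49). With 20 to 24 H3K4me3 reads the held-out values were 9.96 and 7.04, a ratio of 1.41 (1.34 to 1.46), beside 1.18 (1.16 to 1.20) for the combined mark. In the lowest class, with 0 to 4 H3K4me3 reads, a mean of 43.8 bins was chosen. The ratio there was 2.49 (2.02 to 2.92) for held-out H3R2me2s and 1.87 (1.60 to 1.99) for the combined mark. All these ranges are over divisions of the same reads. They leave out counting error and the spread over bins, so they cannot show whether the ratios differ beyond those.

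**Figure D4:**
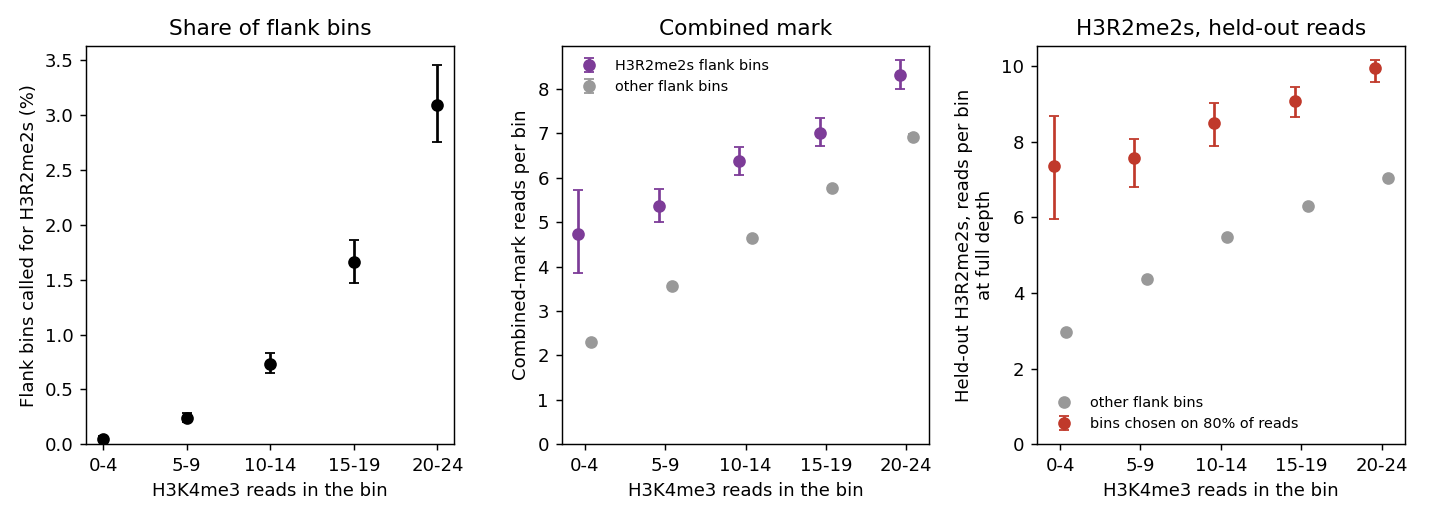
Flank bins by H3K4me3 reads in the bin: share called for H3R2me2s (left, exact 95% binomial intervals), mean combined-mark reads (middle, exact Poisson 95% intervals), and H3R2me2s reads not used in the choice, scaled to full depth (right, bars give the range over 10 divisions of the reads). In both readouts that the choice did not use, the chosen bins lie above the other flank bins in each class, by a ratio of 2.05 to 1.20 for the combined mark.

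H3R2me2s was also higher beside the bins of the set than beside other flank bins. For the 494 bins of the set at 2 to 5 bins from H3K4me3 on 1 side only, H3R2me2s was 2.92 times background (2.82 to 3.02) in the next bin toward H3K4me3. It was 2.75 (2.66 to 2.85) in the next bin outward, and the 6.89 in the bin itself was set by the choice. For other flank bins at those distances H3R2me2s was 1.97 in the next bin toward H3K4me3, 1.79 in the bin itself and 1.73 in the next bin outward. In the held-out 20% of reads, with bins chosen on the other 80%, H3R2me2s was 2.83 times background toward H3K4me3 (2.66 to 3.01 over divisions). It was 3.65 (3.56 to 3.78) in the chosen bin and 2.64 (2.50 to 2.78) in the next bin outward. The combined mark, which was not used in the choice, was 2.96 (2.85 to 3.08), 3.28 (3.17 to 3.40) and 2.56 (2.46 to 2.67) times background over the same 3 bins, a low local maximum at the chosen bin. For the other flank bins it fell steadily, at 2.12, 1.85 and 1.73. H3K4me3 also had a low local maximum at the chosen bin, at 4.17, 4.49 and 3.33 times background in the set. In the others it was 2.97, 2.34 and 2.07.

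Next to H3K4me3 the bins lay on the slope of the H3K4me3 region. For the 316 bins at 1 bin with H3K4me3 on 1 side, H3R2me2s was 6.08 times background in the called H3K4me3 bin beside them, 7.07 in the bin itself, which the choice set, and 2.70 in the next bin outward. The combined mark stepped down over these 3 bins, from 10.8 to 4.14 and 2.69, and H3K4me3 from 20.1 to 6.04 and 3.76. Within the bin, 53.7% of H3R2me2s reads lay in the 500 bp nearer to H3K4me3 (52.4 to 55.1), with 56.5% of combined-mark reads and 59.2% of H3K4me3 reads. In the other flank bins at that distance the shares were 53.6%, 56.0% and 59.1%, each inside the interval of the set. At 2 to 5 bins the share of H3R2me2s reads on the nearer side was 50.5% (49.4 to 51.6).

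**Figure D5:**
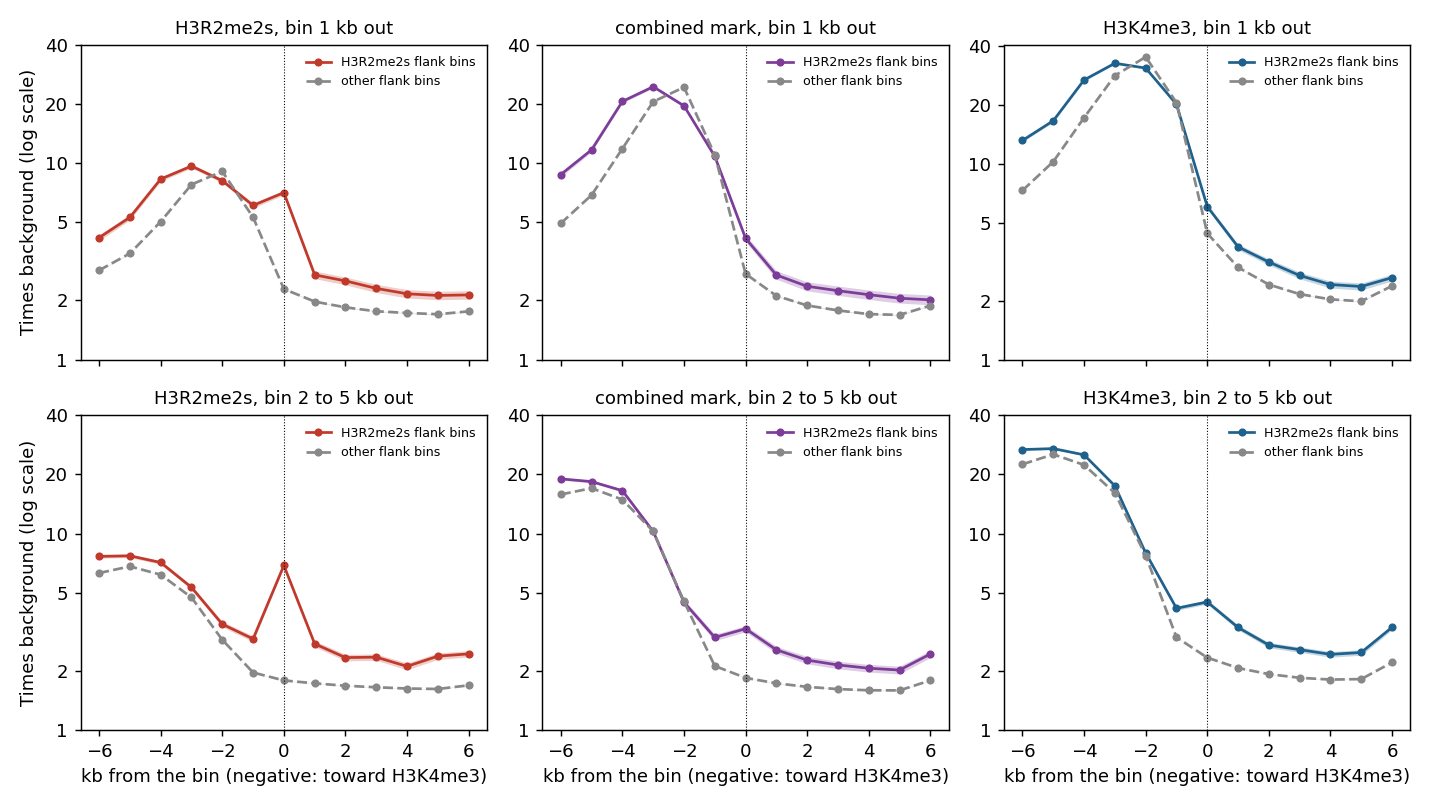
Mean level in times background (log scale) in the bins around H3R2me2s flank bins (solid) and other flank bins (dashed), for bins with called H3K4me3 on 1 side; negative distances are toward H3K4me3, bands are exact Poisson 95% intervals, and the rows are bins at 1 kb and at 2 to 5 kb. The H3R2me2s level in the chosen bin, 6.89 times background in the lower row, was set by the choice. The combined mark, which was not used in it, has a low local maximum of 3.28 there, and H3K4me3 has one of 4.49.

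Some of the bins adjoined an H3R2me2s call inside H3K4me3 chromatin. Of the 1009 bins, 142 touched a bin called for both H3R2me2s and H3K4me3, or 14.1% (11.99 to 16.4), beside 6.18% of all flank bins. Among the 444 bins at 1 bin from H3K4me3 the share was 32.0% (27.7 to 36.5), beside 26.7% of all flank bins at that distance. Of the set, 969 bins stood alone and 40, or 3.96%, formed 20 pairs, with no longer run. Over all flank bins, 0.863% touched a bin of the set, and within a pair each bin counts for the other. The nearest H3K4me3 region, with called bins merged across a gap of 1 bin, held an H3R2me2s call for 66.8% of the set (63.8 to 69.7) and for 63.9% of all flank bins. Its median width was 3 kb for both. The highest H3K4me3 bin of that region had a median of 99 reads for the set and 114 for all flank bins.

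The bins were more frequent beside broad regions and between regions. Beside H3K4me3 regions of 1 kb, 0.590% of flank bins were called for H3R2me2s (0.522 to 0.664), and beside regions of 2 to 3 kb it was 0.459%. It was 0.623% for 4 to 5 kb, 1.01% for 6 to 9 kb and 1.42% (1.06 to 1.85) for 10 kb or more. Mean H3K4me3 over the same flank bins was 7.67 reads beside regions of 1 kb and 11.2 beside those of 10 kb or more. Flank bins with called H3K4me3 within 5 bins on both sides were in the set in 1.48% of cases (1.28 to 1.70), and those with it on 1 side in 0.530% (0.494 to 0.568). Bins that filled a gap of 1 bin inside an H3K4me3 region were in the set in 40 of 1571 cases, or 2.55% (1.83 to 3.45). Mean H3K4me3 was 12.5 ± 5.997 reads (SD over bins) in flank bins with it on both sides, 8.30 ± 5.45 in those with it on 1 side and 16.2 ± 6.10 in the gaps. The part of H3K4me3 in these differences was not tested. The height of the region showed no such order, with 0.700% beside regions whose highest bin had 25 to 49 H3K4me3 reads and 0.601% beside those with 200 or more.

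In all, 936 H3K4me3 regions, or 5.07% of 18461, were nearest to a bin of the set, and 69 of them had 2 bins or more. The bin at the same distance on the opposite side of the region could be read for 936 bins of the set. It was called for H3R2me2s in 31 cases, or 3.31% (2.26 to 4.67), against 0.619% (0.581 to 0.658) opposite the other flank bins. Where both sides are in the set, each counts for the other. The opposite bins held a mean of 6.03 H3R2me2s reads and 11.6 H3K4me3 reads, against 4.67 and 8.89 opposite the other flank bins. H3K4me3 was therefore higher there too, and its part in the opposite calls was not tested.

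The surroundings of the bins were above the genome-wide background in the 3 libraries alike. Between 10 and 50 kb away, in bins more than 5 kb from any call, H3R2me2s averaged 1.78 ± 0.417 times background (SD over 997 bins of the set), the combined mark 1.73 ± 0.427 and H3K4me3 1.81 ± 0.543. Around the other flank bins the means were 1.53 ± 0.394, 1.48 ± 0.390 and 1.53 ± 0.477. The gap between the groups was under 1 SD in each library. Since it appears with every antibody, a difference in the input material cannot be told apart here from a difference in the marks. The part of this gap in the higher levels in and beside the bins of the set was not tested.

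The bins were spread over the genome with chromosome X low. On the 19 autosomes, between 0.432% and 0.853% of flank bins were in the set, with a median of 0.628%. On chromosome X it was 4 of 4591, or 0.0871% (0.0237 to 0.223), where background stood at 0.524 of the genome-wide level in the H3R2me2s library, 0.544 in that of the combined mark and 0.548 in that of H3K4me3. Chromosome Y had 3 of 96 flank bins, or 3.12% (0.649 to 8.86), with H3R2me2s background at 0.389 of the genome-wide level. The part of background in these shares was not tested.

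Compared with the 969 H3R2me2s bins that lie far from H3K4me3, the flank bins had higher counts in the combined-mark and H3K4me3 libraries. The H3R2me2s means, which the limit fixes, were 16.4 reads in the flanks and 16.3 far away. The combined mark averaged 6.95 reads (6.78 to 7.11) in the flanks and 5.49 (5.34 to 5.64) far away, with SDs of 3.59 and 3.18 over bins. H3K4me3 averaged 15.6 and 10.3 reads. The groups were split by H3K4me3 reads nearby, so this difference is not independent of the rule. In flank bins not called for H3R2me2s, mean H3K4me3 also fell with distance, from 13.4 reads at 1 bin to 5.74 at 5 bins. The part of this split in the combined-mark difference was not tested. The combined mark was called in 1.88% of the flank bins and in 0.722% (0.291 to 1.48) of the far ones, and those intervals overlap.

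The 5 bins of the set with most H3R2me2s reads lay at 2 places. Chromosome 1, 24618001 to 24619000, had 58 H3R2me2s, 24 combined-mark and 14 H3K4me3 reads, and 24621001 to 24622000 had 58, 31 and 20. They lie on either side of an H3K4me3 region of 2 kb whose highest bins had 103 H3R2me2s, 50 combined-mark and only 28 H3K4me3 reads. The other 3 are on chromosome 17. The bin at 39985001 to 39986000 had 52, 26 and 19 reads of the 3 libraries in the same order, the bin at 39982001 to 39983000 had 50, 26 and 11, and the bin at 39981001 to 39982000 had 48, 12 and 12. These bins kept 45 to 54 H3R2me2s reads with repeated reads removed. At 20.4 to 24.6 times background for H3R2me2s, they stand apart from the rest of the set, where the highest count was 25 reads. Copy number was not tested at either place.

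No run of neighbouring bins was longer than a pair, and the 2 pairs with most H3R2me2s reads were also on chromosome 17. They spanned 39981001 to 39983000, with 98 H3R2me2s, 38 combined-mark and 23 H3K4me3 reads, and 39984001 to 39986000, with 67, 32 and 37. The next was chromosome 7, 121575001 to 121577000, with 44, 24 and 39 reads.

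By combined-mark reads, 4 of the 5 highest bins of the set were among those just named. The fifth was chromosome 8, 106967001 to 106968000. It had 30 combined-mark reads, 15 H3R2me2s reads and 19 H3K4me3 reads, and lay directly beside an H3K4me3 region of 7 kb. With repeated reads removed it had 12 H3R2me2s reads and 30 combined-mark reads.

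The bins with fewest H3K4me3 reads lay 3 to 5 bins from H3K4me3. Chromosome 1, 43878001 to 43879000, had 15 H3R2me2s and 8 combined-mark reads with 0 H3K4me3 reads, and a count of 0 allows up to 3 reads, or 1.01 times background. Chromosome 11, 121128001 to 121129000, had 18, 1 and 2 reads of H3R2me2s, the combined mark and H3K4me3, and chromosome 15, 61812001 to 61813000, had 18, 2 and 2. Chromosome 3, 130397001 to 130398000, had 16, 4 and 2, and chromosome 2, 172858001 to 172859000, had 15, 2 and 2. In 3 of these 5 bins the combined mark was at 1.07 times background or below it. With repeated reads removed, H3R2me2s was 14 to 17 reads in these bins, under the limit in 2 of them. No genes are named, because no annotation of mm9 was used here.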

How the data were processed

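Each line of the deposited files is a mapped read of 39 bases, and the authors applied no scaling, so numbers of reads per bin are raw counts. Per the submitters' processing notes the build is mm9. The aligner and the treatment of repeated sequence and repeated reads are not given in the sources used here, and either could change which bins reach a limit of 15 reads.

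Reads were shifted by 75 bp toward their 3-prime end before counting in bins of 1 kb. H3R2me2s was called at 15 reads, the combined mark at 16 and H3K4me3 at 25. Background was averaged over covered bins with no call of any library within 5 bins. Shares have exact Clopper-Pearson intervals, means exact Poisson intervals, and ratios of means exact binomial intervals. Levels were compared within classes of H3K4me3 reads, with no test. The rule and the held-out measure were tested on simulated data. Bins were named by rule, chromosome 18 left out: the 5 with most H3R2me2s reads, the 5 with most combined-mark reads, the 5 with fewest H3K4me3 reads, and the 3 longest runs. The bins and measures were chosen with earlier results of these data known. Python 3.11.15, NumPy 2.4.6, SciPy 1.17.1, pandas 2.3.3 and Matplotlib 3.10.9 were used.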

Additional observations from a re-analysis of the deposited data

How the results depend on the processing

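Of 63 values recomputed under 10 settings, 38 stayed inside the main value's interval (for the number of bins, within 1.5 times) and 25 did not. For held-out H3R2me2s that interval was the range over divisions. The set itself moved more than its averages. With the grid moved by 500 bp there were 1069 bins, but only 299 of the 1009 overlapped one of them. With reads not moved, 710 were shared, and with reads moved 150 bp, 688.

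With 1 read per position and strand there were 587 bins (560 shared), 3.24% of them called for the combined mark, at a mean of 3.98 times background, and held-out H3R2me2s was 3.97 times background. With a limit of 20 H3R2me2s reads there were 54 bins, 55.6% next to H3K4me3 and 13.0% called for the combined mark. Their combined mark averaged 5.28 times background, their median was 18 H3K4me3 reads, and 100% were still at 15 reads without repeated ones. The 5 bins with most H3R2me2s reads were among them, with 24, 31, 26, 26 and 12 combined-mark reads. With under 15 H3K4me3 reads there were 427 bins, 22.95% next to H3K4me3, 0.468% called for the combined mark, at 3.19 times background, a median of 11 H3K4me3 reads and 51.5% still at 15 reads. With the H3K4me3 library thinned to the depth of H3R2me2s (limit 13), 48.2% lay next to H3K4me3, the combined mark was at 3.84 times background and median H3K4me3 was 8 reads, from fewer reads. With H3K4me3 within 2 bins there were 639 bins, 69.5% next to H3K4me3, at 4.04 times background and a median of 18 H3K4me3 reads. Within 10 bins, 34.7% lay next to H3K4me3, at 3.62 times background. The cause of moves not fixed by the setting was not tested.

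Leaving out the 5 bins with most H3R2me2s reads was chosen after seeing the data, and 1.49% of the rest were called for the combined mark. No paired analysis was possible because there were no replicates, so leaving out a replicate could not be tried either. At this depth a bin at the held-out level of 3.76 times background lies below the limit on average, so uncalled flank bins were not shown to lack H3R2me2s.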
